A study of Mus musculus with 12 samples.

Results

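The genes described here are Ccl2, Ccl5 and Ccl7, 3 chemokines that endothelial cells can secrete. They were chosen by their measured differences between the groups of these arrays, and each is read by every probe set whose platform annotation names that gene alone. That gave 1 probe set per gene, so 3 of the 11015 genes with a probe set of their own and 3 of 20523 probe sets in all. The probe sets are 1420380_at for Ccl2, 1418126_at for Ccl5 and 1421228_at for Ccl7. Because those values chose the genes, their levels and differences are given as a description, with standard errors and without p-values.

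Chemokines are small secreted proteins that draw leukocytes along a gradient, and endothelium presents them on its surface to cells in the blood. Ccl2, also called monocyte chemoattractant protein 1, acts through the receptor Ccr2 and brings monocytes to inflamed vessel walls. Ccl7 also acts on Ccr2 and on other receptors, and Ccl5 (RANTES) attracts T cells and monocytes. Inflammatory cytokines switch these genes on through the transcription factor NF-kappa-B, whose inhibitors, among them Nfkbia and Tnfaip3, are themselves induced by it and restrain it.

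The study measured total RNA of aortic endothelial cells from 4-week-old mice, cultured in complete endothelial medium, on Affymetrix mouse arrays to learn how the cells fare without Ets1, Ets2 or both, transcription factors of the ETS family. Wild type cells (WT) were Ets1+/+ and Ets2+/+ and carried a lentivirus with eGFP. Ets1KO cells were Ets1-/- with floxed Ets2 alleles (Ets2 fl/fl) and carried the same eGFP lentivirus. Ets2KO cells were Ets1+/+ and Ets2 fl/fl and received a lentivirus with eGFP and Cre recombinase, which deletes floxed DNA. Cells labelled DKO were Ets1-/- and Ets2 fl/fl and received the Cre lentivirus. All cells were thus transduced. Cre and loss of Ets2 cannot be told apart, no group has wild type Ets2 with Cre, and floxed Ets2 alleles are absent from WT only. Each group has 3 columns of values, called biological replicates in the titles. No other label says that they came from separate animals, so the errors below measure the spread between these arrays. Sex-linked transcripts, given below, differ between WT replicate 1 and WT replicates 2 and 3, so WT replicate 1 is not of the same animal as those.

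Some facts of the arrays bear on every value below. In 20521 of 20523 probe sets, to a tolerance of 1e-05, replicate 3 labelled DKO is the arithmetic mean of DKO replicates 1 and 2, so it was left out. Thus 11 arrays are compared and DKO has 2. Array medians were 8.28 to 8.30 in the columns labelled DKO and 9.05 to 9.15 in the 9 others, on the deposited log2 scale. Levels are therefore given relative to array medians, meaning that each array's median over the 11015 genes was subtracted. For the 3 chemokines, differences that involve DKO are also given as deposited. Relative to array medians the median gene differed by 0.11 in DKO minus WT, 0.17 in DKO minus Ets1KO and 0.14 in DKO minus Ets2KO. As deposited these medians were -0.61, -0.59 and -0.57. This offset goes with the DKO label, so it cannot be told apart from the group. It was not alike for all dim genes. As deposited Csf1r read 7.36 to 7.39 in DKO against 7.24 to 7.54 in the 9 others, while Lyz2 read 5.97 to 6.16 against 6.59 to 7.07. For a dim gene without the offset, subtracting the medians raises DKO. WT replicate 3 stands apart, since the array nearest to it by correlation is Ets1KO replicate 3 (r = 0.926) and not a WT array.

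The targeted transcripts check the labels only in part. On its brightest probe set Ets1 read 0.89, 0.41 and 0.56 in the WT arrays and -1.16, -0.70 and -0.32 in the Ets1KO arrays, relative to array medians, a difference of -1.35 (SE 0.23, limma adjusted p = 0.151). In the arrays labelled DKO, which are labelled Ets1-/-, Ets1 read 1.29 and 1.60, and it was 2.17 above Ets1KO (SE 0.25, limma adjusted p = 0.000713). A second of its 4 probe sets read 1.08 and 1.12 in DKO, against 0.23 to 0.71 in WT. The dimmer ones differ from these and from each other, since one read -1.33 and -0.71 in DKO against -1.21 to -1.02 in WT, and the other -2.25 and -1.64 against -0.68 to -0.65, below every WT array. Ets2 read 0.35, 0.58 and 1.21 in WT, 0.22, -0.05 and 0.68 in Ets2KO, and 2.28 and 0.94 in DKO on its brighter probe set. DKO replicate 2 thus lies within the WT arrays there. Its other probe set read -0.37 and -1.66 in DKO, against -1.76 to -1.33 in WT and -1.80 to -1.63 in Ets2KO. Ets2KO minus WT was -0.43 for Ets2 (SE 0.35, limma adjusted p = 0.544), and DKO minus Ets2KO was 1.33 (SE 0.40, limma adjusted p = 0.0325). The brightest probe sets of both genes thus go against the DKO label, and those arrays are called DKO or the arrays labelled DKO only by that label. Whether these probe sets lie in the deleted parts of either gene was not examined.

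The labelled cell type was checked against its markers. Of 14 endothelial markers 4 had a probe set of their own, namely Kdr, Flt1, Eng and Cd34. Kdr, a receptor for vascular endothelial growth factor, lay between -2.45 and -1.77 in all 11 arrays, below the array median everywhere. Eng lay above the median in WT replicates 1 and 2 and in the Ets2KO arrays, at 0.38 to 1.43, and between -1.30 and -1.16 in the 6 others. Cd34 read 3.30, 0.56 and -0.17 in WT, -3.20 to -1.16 in Ets1KO, 0.46 to 1.48 in Ets2KO, and 0.97 and -3.03 in DKO. Flt1 lay below the median in 10 of 11 arrays, all but DKO replicate 2 (0.79). Of 9 fibroblast markers 8 were measured, and they went both ways. Pdgfra lay 1.10 to 3.82 above the median in every array, Col1a2 2.22 to 5.64 and Col3a1 1.46 to 5.00. Col1a1 lay above it in all but Ets2KO replicate 2 (-0.23). Lum lay between -4.53 and -2.46 in every array, and Dcn lay below the median in all but DKO replicate 1 (0.71). Dpt and Fbln1 lay on both sides. Collagen transcripts were thus high in arrays where Kdr was low. The arrays are bulk RNA, so fewer cells of a type and less RNA per cell cannot be told apart in any value below.

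Ccl2 had the widest range of the 3 chemokines. Its deposited log2 values were 14.19, 12.86 and 8.28 in WT replicates 1 to 3, 6.48, 7.42 and 8.65 in Ets1KO, and 7.50, 9.25 and 6.37 in Ets2KO. They were 10.68, 11.13 and 10.90 in the columns labelled DKO, the last of which is computed. Relative to array medians these are 4.82, 3.43 and -1.21 in WT, -2.99, -2.04 and -0.84 in Ets1KO, -1.91, -0.14 and -3.08 in Ets2KO, and 1.95 and 2.44 in DKO. In WT replicate 1 Ccl2 outranked 99.3% of the probe sets on the array, and in WT replicate 2 it outranked 96.8%. In WT replicate 3 it outranked 33.6%, which is lower than in Ets1KO replicate 3 (39.8%) and Ets2KO replicate 2 (54.0%). The arrays labelled DKO lay between these extremes, at 86.8% and 90.2%.

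Ccl7 had the same 4 highest arrays as Ccl2, at lower ranks. Its deposited log2 values were 11.84, 10.04 and 6.72 in WT, 5.85, 6.12 and 7.26 in Ets1KO, 6.24, 6.23 and 6.18 in Ets2KO, and 9.81, 7.69 and 8.75 in DKO. Relative to array medians it read 2.47, 0.61 and -2.78 in WT, -3.62, -3.34 and -2.23 in Ets1KO, -3.17, -3.17 and -3.27 in Ets2KO, and 1.07 and -1.0 in DKO. Ets2KO was thus the tightest group and WT the widest. In the Ets2KO arrays Ccl7 outranked between 1.92% and 2.44% of probe sets, against 91.7% in WT replicate 1. The file holds no detection calls, so it cannot be said whether such low values lie above background.

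Ccl5 differed least between arrays. Its deposited log2 values were 8.27, 8.57 and 6.97 in WT, 6.24, 6.18 and 6.80 in Ets1KO, 6.48, 6.48 and 5.87 in Ets2KO, and 8.28, 7.94 and 8.11 in DKO. Relative to array medians it read -1.10, -0.86 and -2.53 in WT, -3.23, -3.28 and -2.69 in Ets1KO, -2.93, -2.91 and -3.58 in Ets2KO, and -0.45 and -0.75 in DKO. It lay below the array median in all 11 arrays, and its highest rank was 49.6%, in DKO replicate 1. No array of the single knockouts reached the lowest WT array for Ccl5, while for Ccl2 they did.

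**Figure D1:**
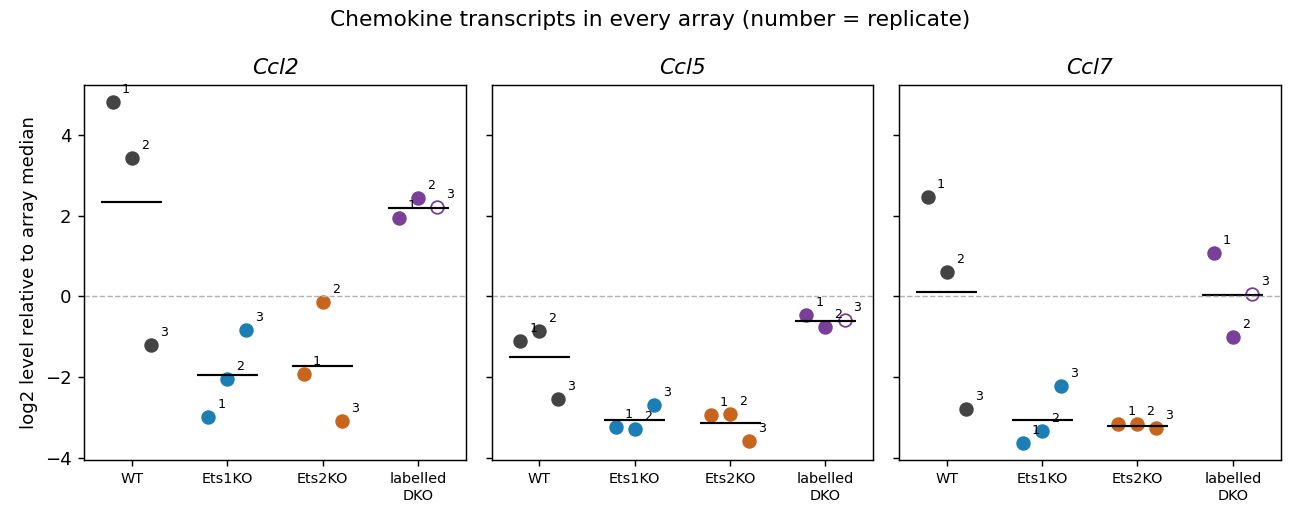
Log2 level relative to the array median (y axis) of Ccl2, Ccl5 and Ccl7 in each array, by group (x axis), with the replicate number beside each point and the group mean as a bar. The open circle is DKO replicate 3, the computed column, which enters no mean. WT replicate 3 lies with the single knockouts for Ccl2 (-1.21) and Ccl7 (-2.78), while WT replicates 1 and 2 and the arrays labelled DKO are the 4 highest in every panel.

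The spread among the WT arrays was wide, and for Ccl2 and Ccl7 its largest gap exceeded each difference between group means. WT replicate 1 exceeded WT replicate 3 by 6.03 for Ccl2, 5.25 for Ccl7 and 1.43 for Ccl5. WT replicate 2 exceeded WT replicate 3 by 4.65, 3.38 and 1.67. On the linear scale Ccl2 was 65.4-fold higher in WT replicate 1 than in WT replicate 3. Set among all 11015 genes, the standard deviation over the WT arrays was larger than that of 99.9% of genes for Ccl2, 99.7% for Ccl7 and 92.5% for Ccl5. The arrays labelled DKO differed by 2.07 for Ccl7, 0.30 for Ccl5 and -0.49 for Ccl2, as replicate 1 minus replicate 2.

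Group means relative to array medians put WT and DKO above both single knockouts for each gene. For Ccl2 the means were 2.35 ± 3.16 in WT, -1.96 ± 1.08 in Ets1KO, -1.71 ± 1.48 in Ets2KO (SD, n = 3 each) and 2.19 ± 0.35 in DKO (SD, n = 2). For Ccl7 they were 0.10 ± 2.66, -3.06 ± 0.74, -3.20 ± 0.06 and 0.04 ± 1.47 in the same order. For Ccl5 they were -1.50 ± 0.90, -3.07 ± 0.33, -3.14 ± 0.38 and -0.60 ± 0.21. In that order of means the 2 single knockouts do not differ beyond their spread for any of the 3 genes. WT and DKO do not differ beyond the spread of WT for Ccl2 and Ccl7. For Ccl5 both DKO arrays lie above the highest WT array (-0.86), and the means differ by as much as the WT standard deviation. As deposited both DKO arrays, at 8.28 and 7.94, lie below the highest WT array (8.57).

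WT replicates 1 and 2 and the 2 arrays labelled DKO held the 4 highest values of all 11 arrays for Ccl2, Ccl5 and Ccl7 alike. The same was found as deposited. Over all genes, 174 of 11015 (1.58%) had those arrays as their 4 highest, relative to array medians. The order was noticed in the 3 chemokines first, so nothing is read from their share.

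Loss of Ets1 alone was the first comparison, given relative to array medians like those that follow. Ets1KO minus WT was -4.30 (SE 1.40) for Ccl2, -3.16 (SE 1.13) for Ccl7 and -1.57 (SE 0.41) for Ccl5. In linear terms the Ets1KO means were 19.7-fold, 8.97-fold and 2.97-fold lower. The groups did not overlap for Ccl5 and overlapped for Ccl2 and Ccl7, since WT replicate 3 lay within the Ets1KO arrays. Over all genes 18.5% had groups that did not overlap. In limma 1 gene of 11015 was called at adjusted p below 0.05 (0.00908%), and 959 had an unadjusted p below 0.05. Without WT replicate 3 the differences were -6.08, -4.60 and -2.09.

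Loss of Ets2 alone, with Cre, gave differences of like size. Ets2KO minus WT was -4.06 (SE 1.40) for Ccl2, -3.30 (SE 1.13) for Ccl7 and -1.65 (SE 0.41) for Ccl5. The Ets2KO means were 16.7-fold, 9.85-fold and 3.13-fold lower. Groups did not overlap for Ccl5 and Ccl7, as for 26.9% of all genes, and overlapped for Ccl2. Over all genes 48 were called (0.436%). Without WT replicate 3 the differences were -5.84, -4.74 and -2.16. Ets1KO and Ets2KO are set against the same WT arrays, so the likeness of both sets of differences is not 2 independent observations.

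Ccl2 and Ccl7 in the arrays labelled DKO had means near those of WT. DKO minus WT was -0.15 (SE 1.57) for Ccl2, -0.06 (SE 1.26) for Ccl7 and 0.90 (SE 0.46) for Ccl5. As deposited these were -0.87, -0.78 and 0.18. Relative to array medians the groups did not overlap for Ccl5, as for 52.3% of all genes, but as deposited they overlapped. Over all genes 28.3% were called. For Ccl2 and Ccl7 the sign rests on single arrays, since without WT replicate 3 the differences were -1.93 and -1.50 and without WT replicate 1 they were 1.08 and 1.12. Ccl7 was also at -1.10 without DKO replicate 1 and at 0.97 without DKO replicate 2. Ccl5 stayed positive when each array was left out in turn, at 0.38 to 1.21. With standard errors of this size the data do not show that WT and DKO levels are alike.

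Set against the single knockouts, the arrays labelled DKO were higher for each gene and no array overlapped. DKO minus Ets1KO was 4.15 (SE 1.57) for Ccl2, 3.10 (SE 1.26) for Ccl7 and 2.47 (SE 0.46) for Ccl5, relative to array medians, or 17.7-fold, 8.59-fold and 5.52-fold. As deposited it was 3.39, 2.34 and 1.70. DKO minus Ets2KO was 3.90 (SE 1.57), 3.24 (SE 1.26) and 2.54 (SE 0.46) for Ccl2, Ccl7 and Ccl5, and 3.20, 2.53 and 1.84 as deposited. The Ccl7 values rest on both DKO arrays, since without DKO replicate 1 they were 2.07 and 2.20 against Ets1KO and Ets2KO, and without DKO replicate 2 they were 4.14 and 4.27. Groups without overlap were common, at 58.3% of all genes against Ets1KO and 55.4% against Ets2KO. Over all genes 28.7% and 30.3% were called in these comparisons.

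The interaction, computed as DKO minus Ets1KO less Ets2KO minus WT, was 8.20 (SE 2.10) for Ccl2, 6.40 (SE 1.70) for Ccl7 and 4.11 (SE 0.61) for Ccl5. As deposited it was 7.46, 5.66 and 3.36. Leaving out each array in turn gave 6.97 to 9.98 for Ccl2, 5.22 to 7.84 for Ccl7 and 3.79 to 4.63 for Ccl5. Over all genes 14.5% were called.

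**Figure D2:**
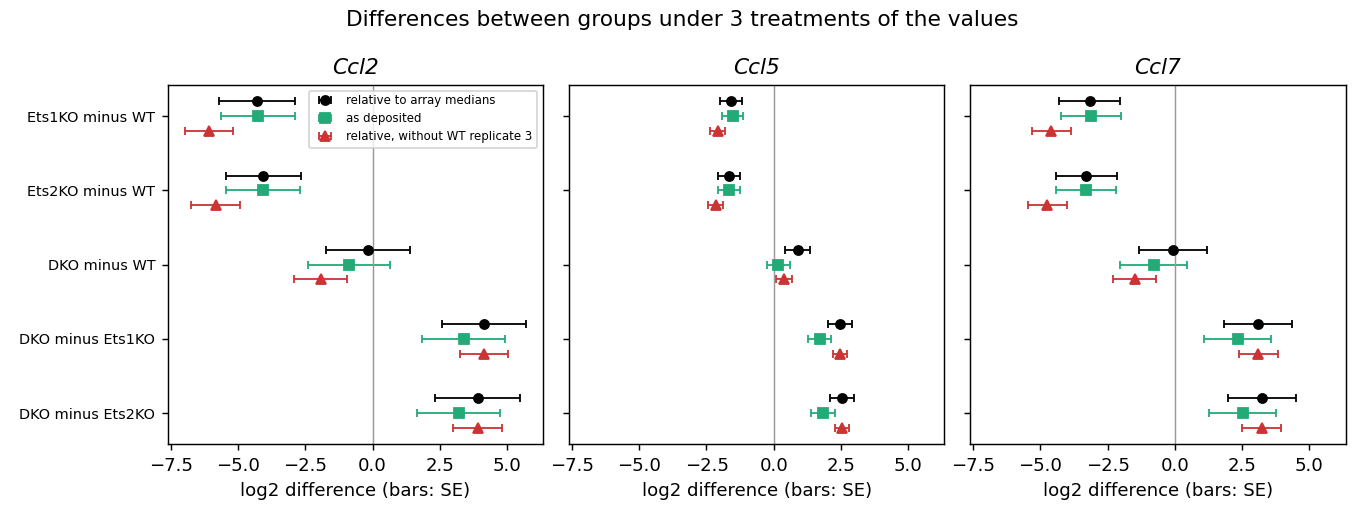
Log2 differences between groups (x axis) of Ccl2, Ccl5 and Ccl7 in 5 comparisons (y axis), with the standard error of the fit as bars, relative to array medians, as deposited, and relative to array medians without WT replicate 3. DKO stands for the arrays labelled DKO. Leaving out WT replicate 3 moves Ccl2 in Ets1KO minus WT from -4.30 to -6.08, and Ccl2 in DKO minus WT from -0.15 to -1.93.

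Among the receptors, Ccr2, on which Ccl2 and Ccl7 act, was flat at -1.68 to -1.29 relative to array medians in all 11 arrays. Of 23 receptors listed, 3 had a probe set of their own. The other two are atypical receptors, which bind chemokines without classical signalling. Ackr4, which scavenges Ccl25 and other CC chemokines, read -1.76 and -2.13 in the arrays labelled DKO against -3.07 to -2.46 in the 9 others. It was called in DKO minus WT at 0.92 (SE 0.19, limma adjusted p = 0.00782), but the difference was 0.20 as deposited. Against Ets1KO it was 0.69 (SE 0.19, limma adjusted p = 0.0261) and turned to -0.07 as deposited. Ackr3, which binds Cxcl12, was called in DKO minus Ets2KO at 3.29 (SE 0.98, limma adjusted p = 0.0326), and that call was lost in 7 of 18 alternatives. The medians over the 3 receptors were 0.23 in Ets1KO minus WT, -0.01 in Ets2KO minus WT, 0.92 in DKO minus WT, 0.69 in DKO minus Ets1KO and 0.91 in DKO minus Ets2KO.

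Over all genes, 0.236% were called higher and 0.2% lower in Ets2KO minus WT, 16.4% and 12% in DKO minus WT, 17.4% and 11.3% in DKO minus Ets1KO, and 17.1% and 13.2% in DKO minus Ets2KO, and the counts of the lists here are to be read beside these shares. Of 18 other CC chemokines listed, 6 had a probe set of their own. None was called against WT in any group. Ccl25, a thymic and intestinal chemokine, was the 1 called, in DKO minus Ets1KO at 0.83 (SE 0.22, limma adjusted p = 0.0221) and DKO minus Ets2KO at 1.02 (SE 0.22, limma adjusted p = 0.00883). As deposited those differences were 0.06 and 0.31, and neither was called. Ccl25 read -1.86, -1.35 and -1.99 in WT, -2.36 to -2.31 in Ets1KO, -2.64 to -2.33 in Ets2KO, and -1.28 and -1.75 in DKO. It is also the 1 of the 6 whose 4 highest arrays were those of Ccl2, Ccl5 and Ccl7, relative to array medians only, since as deposited 0 of the 6 were. Among all genes 1.58% had those 4 highest arrays relative to array medians. Medians over the 6 were -0.23, -0.16, 0.22, 0.36 and 0.36 in the 5 comparisons, in the order Ets1KO minus WT, Ets2KO minus WT, DKO minus WT, DKO minus Ets1KO, DKO minus Ets2KO. Over all genes they were -0.03, -0.01, 0.11, 0.17 and 0.14.

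On the chromosome, Ccl2 and Ccl7 lie next to each other in the RefSeq gene order of GRCm38.p6. Apart from that pair, Ccl9 was the 1 measured gene within 5 places of any of the 3, at 2 places from Ccl5. Ccl9, a myeloid chemokine, differed by -0.59 in Ets1KO minus WT, -0.55 in Ets2KO minus WT, 0.04 in DKO minus WT, 0.62 in DKO minus Ets1KO and 0.59 in DKO minus Ets2KO, and was not called. Its other probe set gave -1.85 in DKO minus WT. WT replicate 3, where Ccl2 and Ccl7 were low, held its highest value, 1.99.

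Of 17 chemokines of the CXC, CX3C and XC classes listed, 5 had a probe set of their own and none was called in the 5 comparisons. Their medians were -0.10, -0.05, 0.15, 0.56 and 0.20 in the same order. Cxcl1, which attracts neutrophils, was singled out after its values were seen. Its brightest probe set read 2.17, 0.85 and -0.21 in WT, -0.25 to 0.07 in Ets1KO, -0.50 to 0.13 in Ets2KO, and 0.67 and 0.53 in DKO. A dimmer probe set read 4.10, 2.05 and -3.56 in WT, -4.33, -3.78 and -4.19 in Ets1KO, -4.49, -4.32 and -4.46 in Ets2KO, and 0.10 and -0.75 in DKO. Its 4 highest arrays were those of Ccl2 and Ccl7. On that probe set the difference from WT was -4.97 in Ets1KO and -5.29 in Ets2KO (limma adjusted p = 0.447 and 0.113 over 20523 probe sets), the largest of its 3 probe sets. The brightest gave -1.06 and -1.21, and the remaining one -3.15 and -3.03. Cx3cl1, which is membrane bound and draws monocytes, read -1.33 in DKO minus Ets1KO (SE 0.66, limma adjusted p = 0.164). Cxcl12 ran from -0.93 in WT replicate 3 to 4.96 in Ets2KO replicate 3.

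Of 20 cytokine receptors and adaptors that act upstream of chemokine genes, 18 were measured. None was called in Ets1KO or Ets2KO minus WT. Tlr2, a receptor for bacterial lipoproteins, had the largest differences there, at -2.00 in Ets1KO minus WT (SE 0.72, limma adjusted p = 0.514) and -1.16 in Ets2KO minus WT (SE 0.72, limma adjusted p = 0.408), and read 0.44, -0.77 and -2.42 in WT. In DKO minus WT 1 was higher and 2 were lower, in DKO minus Ets1KO 3 and 3, and in DKO minus Ets2KO 1 and 4. Traf6, an adaptor of interleukin-1 and Toll-like receptors, was higher in DKO by 1.23, 1.27 and 1.28 (SE 0.18 each), but its other probe set gave -0.28, -0.17 and 0.22. Tlr4, the endotoxin receptor, was called lower at -0.91 against WT and -1.10 against Ets2KO, while its other probe set gave 0.55 and 0.22. Medians over the list were -0.25, 0.02, -0.17, 0.32 and 0.13 in the 5 comparisons.

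Of 15 NF-kappa-B factors and inhibitors, 12 were measured. None was called in Ets1KO minus WT, 1 was lower in Ets2KO minus WT, and 2 were higher and 2 lower in DKO minus WT. In DKO minus Ets1KO 6 were higher and 2 lower, and in DKO minus Ets2KO 5 were higher and 2 lower. Medians were -0.40, -0.75, 0.18, 0.57 and 0.55, beside the medians of all genes given above. The 4 arrays highest for Ccl2, Ccl5 and Ccl7 were also highest for 5 of the 12, namely Nfkbia, Nfkbie, Nfkbiz, Tnfaip3 and Bcl3, relative to array medians. Over all genes this held for 1.58%. As deposited it held for 2 of the 12, and the share of all genes is not given on that scale. The order was noticed in the 3 chemokines first, so nothing is read from these counts.

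Nfkbiz, an atypical inhibitor that can also help activate some inflammatory genes, read 2.27, 2.62 and 1.49 in WT, 0.53, 0.41 and -0.18 in Ets1KO, -1.22, -0.28 and -0.64 in Ets2KO, and 2.09 and 2.70 in DKO. Here WT replicate 3 lay above all single knockout arrays, as it did not for Ccl2. Those levels and the differences that follow are of its brightest probe set. Another gave -0.95 in Ets2KO minus WT, 0.32 in DKO minus Ets1KO and 0.98 in DKO minus Ets2KO. The remaining one gave -2.81, 1.65 and 2.61. Ets2KO minus WT was -2.84 (SE 0.35, limma adjusted p = 0.023), a call lost in 6 of 18 alternatives. DKO minus Ets1KO was 2.14 (SE 0.40, limma adjusted p = 0.00517) and DKO minus Ets2KO was 3.11 (SE 0.40, limma adjusted p = 9e-04), and both were called in all 18.

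Nfkbia, the inhibitor that holds NF-kappa-B in the cytoplasm, read 4.35, 3.91 and 2.66 in WT, 2.60 to 3.06 in Ets1KO, 2.42 to 2.94 in Ets2KO, and 4.46 and 4.68 in DKO. DKO minus Ets2KO was 1.92 (SE 0.42, limma adjusted p = 0.00949), and its 5 probe sets gave 1.73 to 1.92. Tnfaip3, a ubiquitin-editing enzyme that ends NF-kappa-B signalling, read 2.06 and 1.79 in DKO against -3.01 to -1.01 in Ets2KO. Its difference there was 4.06 (SE 0.75, limma adjusted p = 0.00482), but its other probe set gave -0.05.

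Among the DNA-binding subunits, Rela, the main activating one, read 0.42 and 0.75 in the arrays labelled DKO against 1.51 to 2.06 in the 9 others, and was called in DKO minus WT at -1.25 (SE 0.17, limma adjusted p = 0.0016), a call kept in all 18 alternatives. Nfkb2, the precursor of p52, was called in DKO minus WT at -2.04 (SE 0.41, limma adjusted p = 0.00668), while its other probe set gave -0.33.

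**Figure D3:**
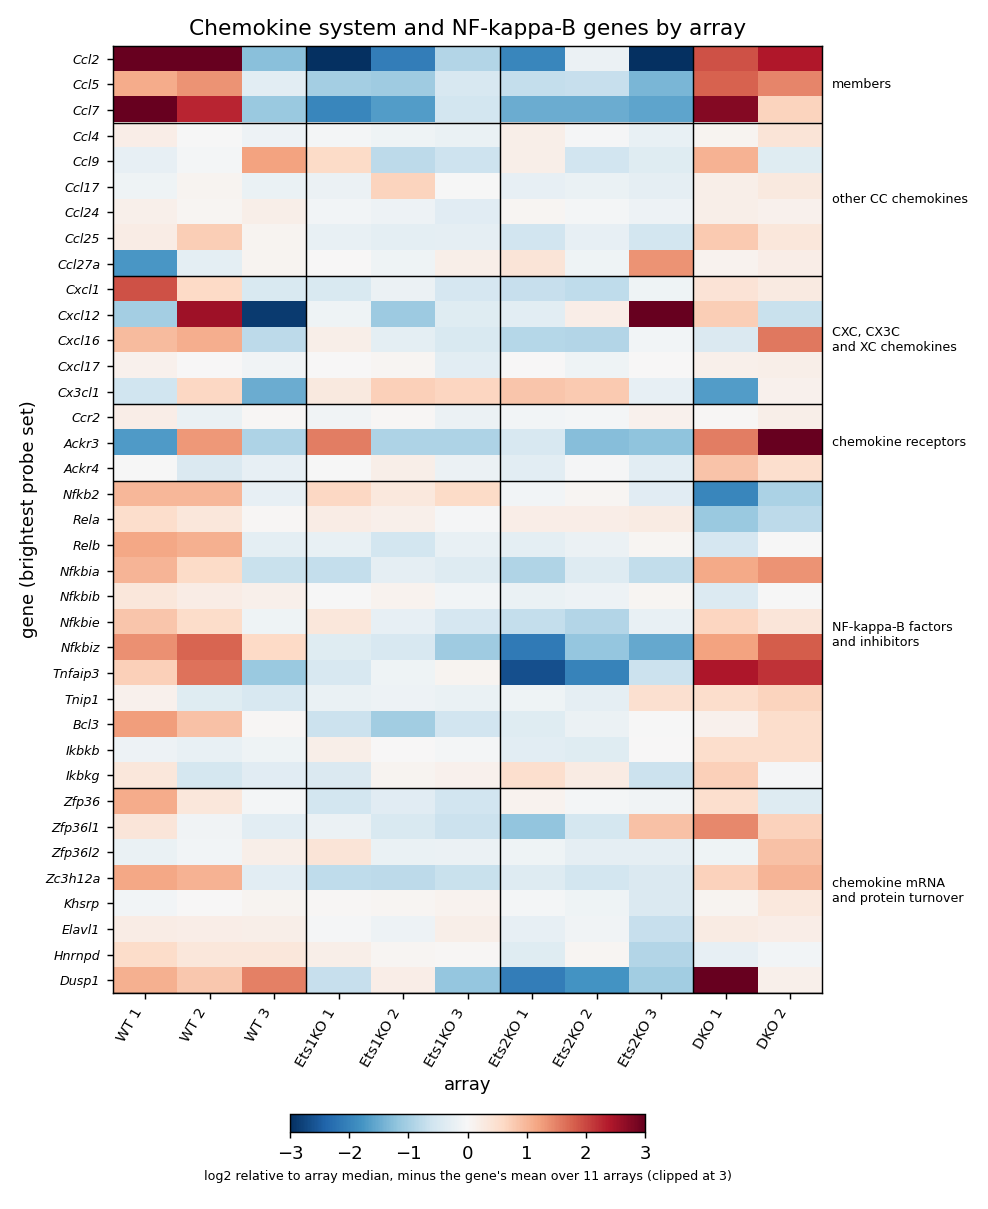
Log2 level relative to the array median, minus each gene's mean over the 11 arrays (colour, limited to -3 and 3), for Ccl2, Ccl5 and Ccl7 and the measured genes of 5 lists (y axis) in each array (x axis). WT replicates 1 and 2 and the arrays labelled DKO are red for the 3 chemokines and for Nfkbia, Nfkbiz and Tnfaip3, whereas Rela and Nfkb2 are blue in DKO.

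Of 9 regulators of chemokine mRNA and protein turnover 8 were measured, and 1 was higher in DKO minus Ets1KO and 3 in DKO minus Ets2KO. Zc3h12a (Regnase-1), an endonuclease that degrades inflammatory mRNA, read -0.86, -0.99 and -2.34 in WT, -2.81 to -2.69 in Ets1KO, -2.59 to -2.40 in Ets2KO, and -1.34 and -1.01 in DKO. It was called in DKO minus Ets1KO at 1.59 (SE 0.38, limma adjusted p = 0.0139) and in DKO minus Ets2KO at 1.31 (SE 0.38, limma adjusted p = 0.0284). As deposited neither was called. Dusp1, a phosphatase of MAP kinases, was higher in DKO minus Ets2KO by 3.23 (SE 0.74, limma adjusted p = 0.0113), with DKO at 2.98 and 0.13. Medians over the list were -0.37, -0.51, 0.21, 0.47 and 0.58.

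Of 18 interferon response factors and targets, which can drive Ccl5, 11 were measured. None was called in Ets1KO or Ets2KO minus WT. In DKO minus WT Stat2, a subunit of the interferon-activated factor, was called at -1.44 (SE 0.33, limma adjusted p = 0.0123), and Irf2 was higher by 0.85 (SE 0.16, limma adjusted p = 0.00481), or 0.13 as deposited. The interferon-induced gene Ifit3 lay between -3.13 and -1.32 in all 11 arrays. None of the 11 shared the 4 highest arrays of the chemokines.

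Of 11 leukocyte adhesion genes of endothelium 6 were measured, and none was called outside DKO minus Ets2KO. There Jam2, a junctional adhesion molecule, was higher by 2.15 (SE 0.64, limma adjusted p = 0.0335), a call lost in 8 of 18 alternatives, and Jam3 was called at -0.71 (SE 0.17, limma adjusted p = 0.0137). Selp, P-selectin, which captures rolling leukocytes, read 1.93, -0.57 and -3.36 in WT and was at -2.59 in Ets1KO minus WT (SE 1.40, limma adjusted p = 0.618).

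Likeness of pattern was measured over the 11 arrays as the root-mean-square difference between genes, each centred on its mean over the arrays. The genes nearest to Ccl2 were Ccl7 (1.0), the iron-binding lipocalin Lcn2 (1.24), Rpgrip1 (1.29), the cytokine Lif (1.34) and the acute-phase gene Saa3 (1.37). Nearest to Ccl7 were Saa3 (0.73), Gpr176 (0.94), Rpgrip1 (0.96), Ccl2 (1.0) and Ccl5 (1.16). Nearest to Ccl5 were Nfkbia (0.47), Zc3h12a (0.49), the kinase Syk (0.53), Syt17 (0.54) and the kinase Map3k8 (0.55). The same 5 genes were nearest to each chemokine as deposited. Ccl2 and Ccl7 correlated at r = 0.93 over these arrays, which share groups and array-wide differences.

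Transcripts of other cell types moved across the same arrays. Of 6 adipocyte markers 4 were measured, and their mean level relative to array medians was -1.56, -2.37 and 2.49 in WT, -3.54 to -3.18 in Ets1KO, 0.74 to 3.75 in Ets2KO, and 0.19 and -2.66 in DKO. Adipoq, made by fat cells, read -5.39, -5.42 and 1.40 in WT and 3.77 in Ets2KO replicate 3. WT replicate 3 and the Ets2KO arrays were thus high for adipocyte markers and low for Ccl2 and Ccl7, whereas the Ets1KO arrays were low for both. The part of the adipocyte markers in the Ets2KO minus WT differences was not tested.

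Macrophages are another source of these chemokines. Of 12 macrophage and monocyte markers 4 were measured, and their mean level was -2.23 to -1.61 in WT, -1.93 to -1.73 in Ets1KO, -2.78 to -2.31 in Ets2KO, and -2.23 and -1.80 in DKO. Csf1r, Lyz2 and Cd68 lay below the array median in all 11 arrays, and Lyz2 between -2.86 and -2.36. Csf1r was nevertheless called higher in DKO, by 0.67 against WT, 0.85 against Ets1KO and 0.67 against Ets2KO (limma adjusted p = 0.00848, 0.00339 and 0.00787), though as deposited it was -0.05, 0.08 and -0.03. Cd14, which other cells also express, was highest in the Ets1KO arrays and WT replicate 3, at 0.34 to 1.49, where the chemokines were low. In the Ets2KO arrays, where the chemokines were low as well, Cd14 read -2.46 to -1.45. It read -1.27 and -0.98 in WT replicates 1 and 2, and -2.09 and 0.10 in DKO. Of 12 T, NK and B cell markers, 1 (Cd3e) was measured, at -1.35 and -1.64 in DKO and -2.50 to -2.01 in the 9 others. It was called higher in DKO by 0.67, 0.82 and 0.86 in the same comparisons (limma adjusted p = 0.0118, 0.0056 and 0.00409), and was -0.05, 0.06 and 0.15 as deposited. The 8 fibroblast markers had a mean of 0.50 to 1.04 in WT, -0.21 to 0.42 in Ets1KO, 0.09 to 1.42 in Ets2KO, and 1.29 and 0.72 in DKO. In DKO minus Ets2KO its collagens Col1a1 and Col1a2 were called at 3.43 and 2.27 and Dpt at -4.16 (limma adjusted p = 0.00377, 0.0234 and 0.00234). Of smooth muscle markers Acta2 was called there at 3.71 (limma adjusted p = 0.0236), and the pericyte marker Rgs5 was at -4.26 (limma adjusted p = 0.0715). The part of these cell type markers in the chemokine differences was not tested.

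The arrays also differed in sex-linked transcripts. The Y-linked gene Eif2s3y read -0.11 to 0.78 in WT replicate 1 and the Ets2KO arrays, and between -6.34 and -5.06 in all other arrays. Kdm5d, also Y-linked, split the same arrays, at -2.18 to -1.42 against -6.30 to -4.99. The sex-linked transcript Xist read -2.11 to -1.89 in WT replicate 1 and Ets2KO, and 3.76 and 1.95 in WT replicates 2 and 3. It read 3.61 to 4.03 in Ets1KO, and 4.24 and 4.50 in DKO. Every Ets2KO array thus differs in these transcripts from every Ets1KO and DKO array, while WT is mixed, with replicate 1 alike to Ets2KO. Sex and group cannot be told apart in DKO minus Ets2KO. The part of sex in the chemokine values was not tested.

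**Figure D4:**
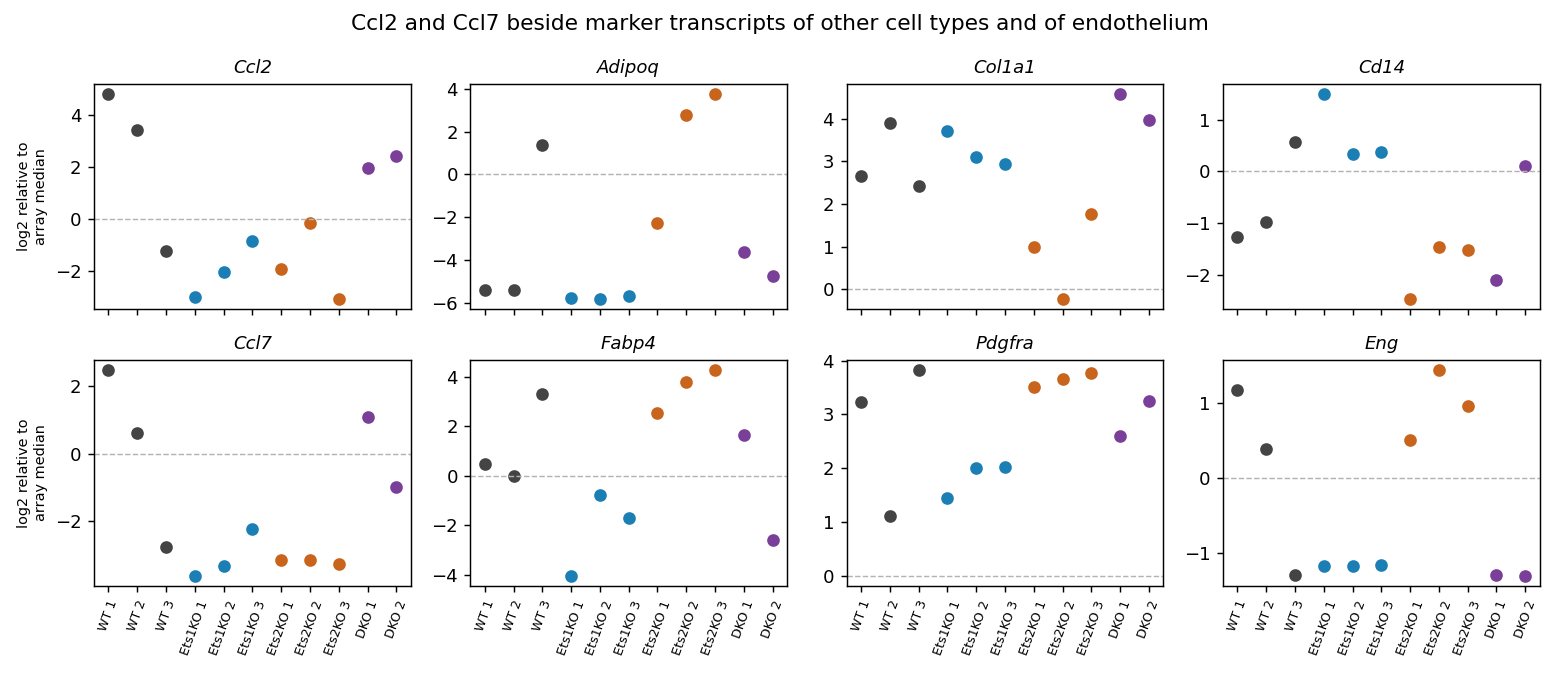
Log2 level relative to the array median (y axes) in each of the 11 arrays (x axis) for Ccl2 and Ccl7 and for Adipoq and Fabp4 of fat cells, Col1a1 and Pdgfra of fibroblasts, Cd14 of myeloid cells and Eng of endothelium. Adipoq is high in WT replicate 3 (1.40) and in Ets2KO replicates 2 and 3, arrays in which Ccl7 is low, and Eng is low in WT replicate 3, the Ets1KO arrays and the arrays labelled DKO.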

How the data were processed

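The deposited values are log2 expression per Affymetrix probe set, made by the authors with RMA per the submitters' processing notes; its version, the array's genome build and any filter are not given in the sources used here. Groups follow the titles, since short descriptions of the Ets1KO and Ets2KO samples say wild type. Probe sets were named through the platform annotation, which gives a single symbol to 18824 of 20523, lists several for 549 and leaves out 1150. The brightest probe set by mean stood for each of 11015 genes, minus each array's median over those genes.

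Models with a mean for each of 4 groups were fitted to 11 arrays, without the computed DKO column, by lmFit and eBayes of limma 3.58.1 (R 4.3.3), with 7 residual and 2.14 prior degrees of freedom. Benjamini-Hochberg adjustment ran over all genes, and a gene is called at adjusted p below 0.05. SE is the fit's standard error, and the number of arrays limits the precision. The 3 chemokines, the gene lists and the naming rule (up to 3 called genes of the largest difference per list and comparison, otherwise up to 2 as values) were chosen with earlier results of these data known. Not every gene so named is printed, and Ccr2 and the dimmer Cxcl1 probe sets are described outside the rule, after their values were seen. On simulated data with 100 genes changed per size in 11015, the fit recovered 94% at a log2 change of 3 and 49% at 1 in Ets1KO minus WT, 93% and 39% in Ets2KO minus WT, and 94% and 55% in DKO minus WT, with 7 false calls each. The simulated noise was independent and normal, without an outlying WT array or a shift of the arrays labelled DKO. These shares do not carry over to Ccl2 and Ccl7, whose spread within groups exceeds that of 99.7% and 98.8% of genes. Alternatives were the deposited scale, quantile normalization, all 12 columns, a replicate block, a filter on dim genes, only the groups compared, the mean of probe sets and leaving out each array. Plots used matplotlib 3.10.9 under Python 3.11.15.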

Additional observations from a re-analysis of the deposited data

Results flagged for a closer look

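The interaction, computed as DKO minus Ets1KO less Ets2KO minus WT, was read for 42 genes named by the rule. Those genes were named from comparisons of the same arrays, so the 14 with a limma adjusted p below 0.05 over all 11015 genes (14.5% of which were called) are given as values and support nothing. The 14 include Ccl2 (8.20), Ccl5 (4.11) and Ccl7 (6.40), whose values chose them, so their place in that count is no test of them. With the replicate block Ccl5 alone of the 3 stayed in it. The same held when WT replicate 2, any 1 Ets1KO array, Ets2KO replicate 1 or Ets2KO replicate 3 was left out. The place of Ccl2 and Ccl7 in the count thus rests on single arrays. Among the NF-kappa-B list the values were 4.99 for Nfkbiz, 4.65 for Tnfaip3, 2.70 for Nfkbia, 2.00 for Bcl3 and -0.99 for Rela. Among regulators of turnover they were 4.91 for Dusp1 and 2.68 for Zc3h12a. The remaining ones were 1.63 for Ccl25, 1.32 for Traf6, 0.96 for Irf2 and -0.74 for Irak1, each relative to array medians. As deposited Ccl25 was at 0.88, Traf6 at 0.58, Irf2 at 0.21, Irak1 at -1.49, Rela at -1.74 and Bcl3 at 1.25. All 4 group means enter each value, including the arrays labelled DKO, where the brightest probe sets of Ets1 and Ets2 go against the label. Each value is of the gene's brightest probe set, and other probe sets differ. In DKO minus Ets1KO they gave -0.61 for Tnfaip3 (brightest 2.48) and -0.17 for Traf6 (1.27). They gave 1.65 and 0.32 for Nfkbiz (2.14), and -0.30, 0.20 and 0.42 for Irak1 (-0.69). Those of Nfkbia gave 1.28 to 1.62 (1.70).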

How the results depend on the processing

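Leaving out each array in turn, the differences ranged in Ets1KO minus WT from -6.08 to -3.06 for Ccl2, -2.09 to -1.25 for Ccl5 and -4.60 to -1.98 for Ccl7, and in Ets2KO minus WT from -5.84 to -2.82, -2.16 to -1.33 and -4.74 to -2.12. In DKO minus WT they ranged from -1.93 to 1.08, 0.38 to 1.21 and -1.50 to 1.12. Each of these ends came from leaving out a WT array. As deposited, Ccl5 was 0.18 in DKO minus WT, 1.70 in DKO minus Ets1KO, 1.84 in DKO minus Ets2KO and 3.36 in the interaction, because the arrays labelled DKO have lower medians. The filter on dim genes left out Ccl5 and Ccl7.

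Genes called over the whole array numbered 1, 48, 3118, 3157 and 3336 in the 5 comparisons in the report's order. As deposited those with DKO were 5054, 4900 and 5103. With all 12 columns 11 were called in Ets1KO minus WT and 326 in Ets2KO minus WT. With only the groups compared 0 were called in Ets1KO minus WT, 0 in Ets2KO minus WT, 1325 in DKO minus WT and 1886 in DKO minus Ets2KO. Without 1 array they ranged from 1 to 23 (23 without WT replicate 3), 2 to 74 (2 without Ets2KO replicate 1), 1926 to 3424, 2010 to 3527 and 2275 to 3646. Of the 14 other chemokines and receptors, 0, 0, 1, 2 and 3 were called. As deposited 4, 5 and 5 were called in the DKO comparisons. With all 12 columns 1 was called in Ets2KO minus WT, 2 in DKO minus WT and 4 in DKO minus Ets1KO. The filter gave 0, 0 and 1 in the DKO comparisons, only the groups compared gave 0 in DKO minus WT, and leaving out 1 array gave 0 to 2, 0 to 2 and 0 to 4. The causes were not tested.

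Deviations of same-numbered arrays from their group means correlated at -0.32 to 0.10 (15 pairs, 1 over 0.1). Between WT and Ets1KO these were 0.09, 0.07 and 0.10, against -0.08 to -0.01 for different numbers. Deviations within a group of so few arrays cancel out, so these correlations cannot exclude that the numbers pair arrays. The main fit used no pairing. With the replicate block the whole-array counts were 4 in Ets1KO minus WT and 0 in Ets2KO minus WT, and no other chemokine or receptor was called in DKO minus Ets1KO (0). Signs turned for Ackr4 in DKO minus Ets1KO as deposited (-0.0748), Irak1 in DKO minus WT by the mean of probe sets (0.062), and Elavl1 in DKO minus Ets2KO as deposited (-0.14) and by the mean of probe sets (-0.22). Over all alternatives, 535 values of called genes named in the text's lists kept their call, 129 lost it and these 4 turned. Array values carry no depth, and with no detection calls the lowest levels of Ccl5 and Ccl7 may be at background.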
